A study of Rattus norvegicus with 8 samples.

Results

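The genes described here are 8 rat genes of glycogen synthesis and breakdown: Ppp1r3b, Ppp1r3c, Gys2, Pygl, Ugp2, Gbe1, Gyg1 and Phka2. A probe was taken for a gene where the RefSeq accession printed for it on the array maps to that symbol. This gave 1 probe, with 1 spot, for each of 7 genes, out of 15168 named genes on 30367 probes. Phka2, the liver alpha subunit of phosphorylase kinase, matched no probe, so it has no value here. RNA was measured in 8 liver samples of male rats aged 22 weeks, each on its own single-colour array, after 14 weeks on a diet. The 5 samples from high-fat diet carry the disease state NAFLD, non-alcoholic fatty liver disease, and the 3 samples from standard chow are the controls. The labels used here give no rat strain, diet composition or feeding state at collection. They also do not state that each sample came from a separate animal, so a p here reflects only how much these samples vary, which may be technical.

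Glycogen is the branched glucose store of the liver, filled after a meal and drawn on between meals to supply blood glucose. Glucose is activated to UDP-glucose, strung onto a glycogenin primer by glycogen synthase and branched by the branching enzyme, while glycogen phosphorylase releases glucose units again. Phosphorylation turns the synthase down and the phosphorylase up, and protein phosphatase 1, brought to the glycogen particle by targeting subunits, removes those phosphates.

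Values are log2 of the processed signal relative to the 75th percentile of the same array, so a difference of 1 is a 2-fold change. Differences are high-fat minus chow, with the standard error (SE) of a limma fit over all 25627 probes tested and a Benjamini-Hochberg adjusted p with a threshold of 0.05. In that fit 3.45% of probes passed, 3.00% of probes as higher and 0.453% of probes as lower on high-fat diet. Quantile normalization gave 852 probes higher and 307 lower in place of 768 higher and 116 lower, and quantile normalization after a normexp background model gave 1114 higher and 1203 lower. The normexp background model without quantile normalization moved the median difference of all probes to −0.30. Values under it include that shift, so they are to be read against −0.30 as well as against 0.

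High-fat arrays were brighter: 79.1% to 92.7% of their probes were well above background, against 66.9% to 71.8% on chow arrays. Slide 1 held high-fat arrays 1 and 4, slide 2 held high-fat arrays 2, 3 and 5, and slide 3 held all chow arrays, so slide and diet cannot be told apart. Differences also moved with signal level: with probes ranked by level into 10 bins of equal size, the median difference was 0.53 in the dimmest bin and −0.24 in the brightest. Hepatocyte markers were high on every array, with a mean level of 5.42 to 5.64 on high-fat and 5.51 to 6.05 on chow arrays. Of these 10 markers 0 passed the limma test and 4 had an unadjusted p under 0.05, beside 20.1% of all probes. All 10 had a negative difference, while 3 of the 10 were positive with quantile normalization and 1 with the normexp background model. Under that model their median difference was −0.28, beside −0.3 over all probes.

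Of the 7 glycogen genes, 1 rose and 0 fell on high-fat diet by the limma test. The gene that rose was Ppp1r3b, a glycogen-targeting subunit of protein phosphatase 1, and its fitted signal was 2.35-fold higher with a 95% confidence interval of 1.56 to 3.57. The genes of the main synthesis and breakdown steps, Ugp2, Gyg1, Gys2, Gbe1 and Pygl, and the second targeting subunit Ppp1r3c did not pass, with adjusted p from 0.279 to 0.735. Differences were positive for 4 genes and negative for 3, beside 50.1% of all probes that were positive, and their median was 0.37 beside 0.00 over all probes. The high-fat and chow arrays did not overlap for 2 of the 7, Ppp1r3b and Ugp2, both higher on high-fat diet. Of all probes 16.9% did not overlap, 7.94% as higher and 8.97% as lower. RNA came from whole tissue, where fewer cells of a type and less RNA per cell cannot be told apart.

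**Figure D1:**
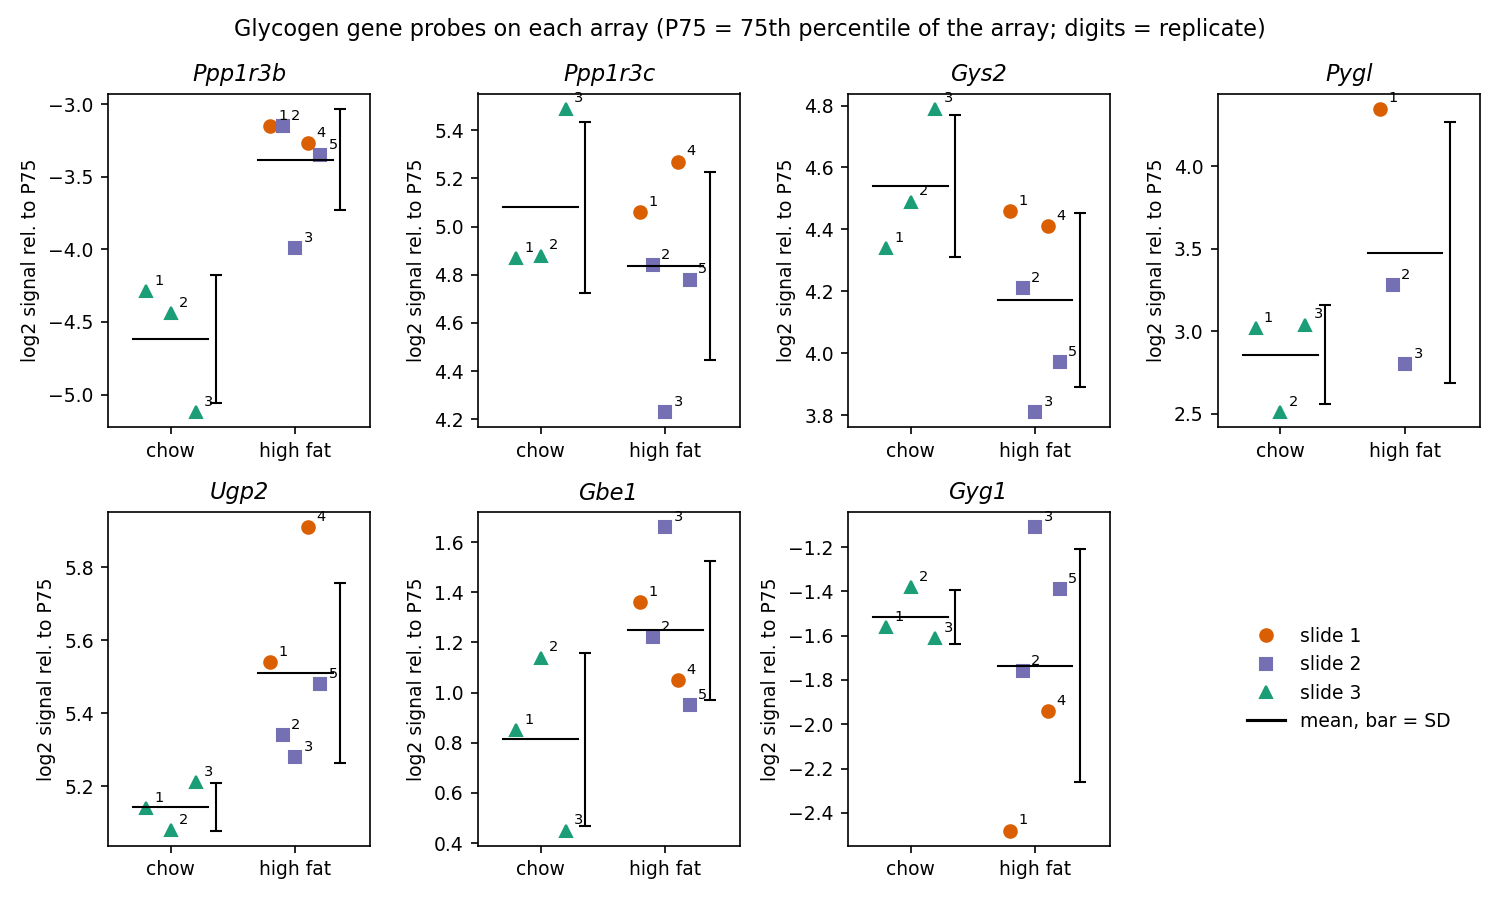
Log2 signal of 7 glycogen genes relative to the 75th percentile of the array (vertical axes, each with its own range) by diet; points are single arrays, numbered by replicate and marked by slide, and the bar and whiskers are the mean ± SD. Diets are apart for Ppp1r3b and Ugp2 and overlap for the other 5 genes; Pygl has 3 high-fat points.

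Ppp1r3b encodes the targeting subunit that binds glycogen and protein phosphatase 1 and favours glycogen synthesis; it is best known from liver. Its levels on high-fat arrays 1 to 5 were −3.15, −3.15, −3.99, −3.27 and −3.35. On chow arrays 1 to 3 they were −4.29, −4.44 and −5.12. Every high-fat array lay above every chow array, the smallest gap being that between high-fat array 3 and chow array 1. The means were −3.38 ± 0.35 (SD, n = 5) and −4.62 ± 0.44 (SD, n = 3), and the difference was 1.24 ± 0.26 (SE), with an adjusted p of 0.0414 in limma. The difference was 1.41 for the high-fat arrays of slide 1 against chow and 1.12 for those of slide 2, which were scanned on the same day as chow.

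The Ppp1r3b spot was dim. Its median signal was 145, 166, 123, 146.5 and 159.5 intensity units on high-fat arrays 1 to 5, over a local background of 27 to 32. On chow arrays 1 to 3 it was 60.5, 104 and 54, over 21 to 25. Chow array 3, the lowest, was also the array on which the spot was not well above background, while the other 7 arrays passed that mark. Processed signals were 65.8 to 102 units on high-fat and 7.98 to 25.7 on chow arrays. These intensities are not scaled between arrays, and chow arrays were dimmer as a whole. The 75th percentile of the processed signal was 725 to 1045 units on high-fat and 278 to 559 on chow arrays. Among probes of this brightness, the third bin from the dim end, the median difference was 0.08 and 3.2% of probes passed.

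The call for Ppp1r3b did not hold under every processing of the arrays. With a normexp background model the difference became −0.14 (limma adjusted p = 0.722), or 0.16 relative to the median of all probes under that model. With quantile normalization it was 1.06 (limma adjusted p = 0.151), and with slide as a random block 1.25 (limma adjusted p = 0.536). Leaving out single arrays gave 0.98 to 1.40; the call held without high-fat array 3 (limma adjusted p = 0.0244) and was lost without any of the other 7, at a limma adjusted p of 0.0688 to 0.136.

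**Figure D2:**
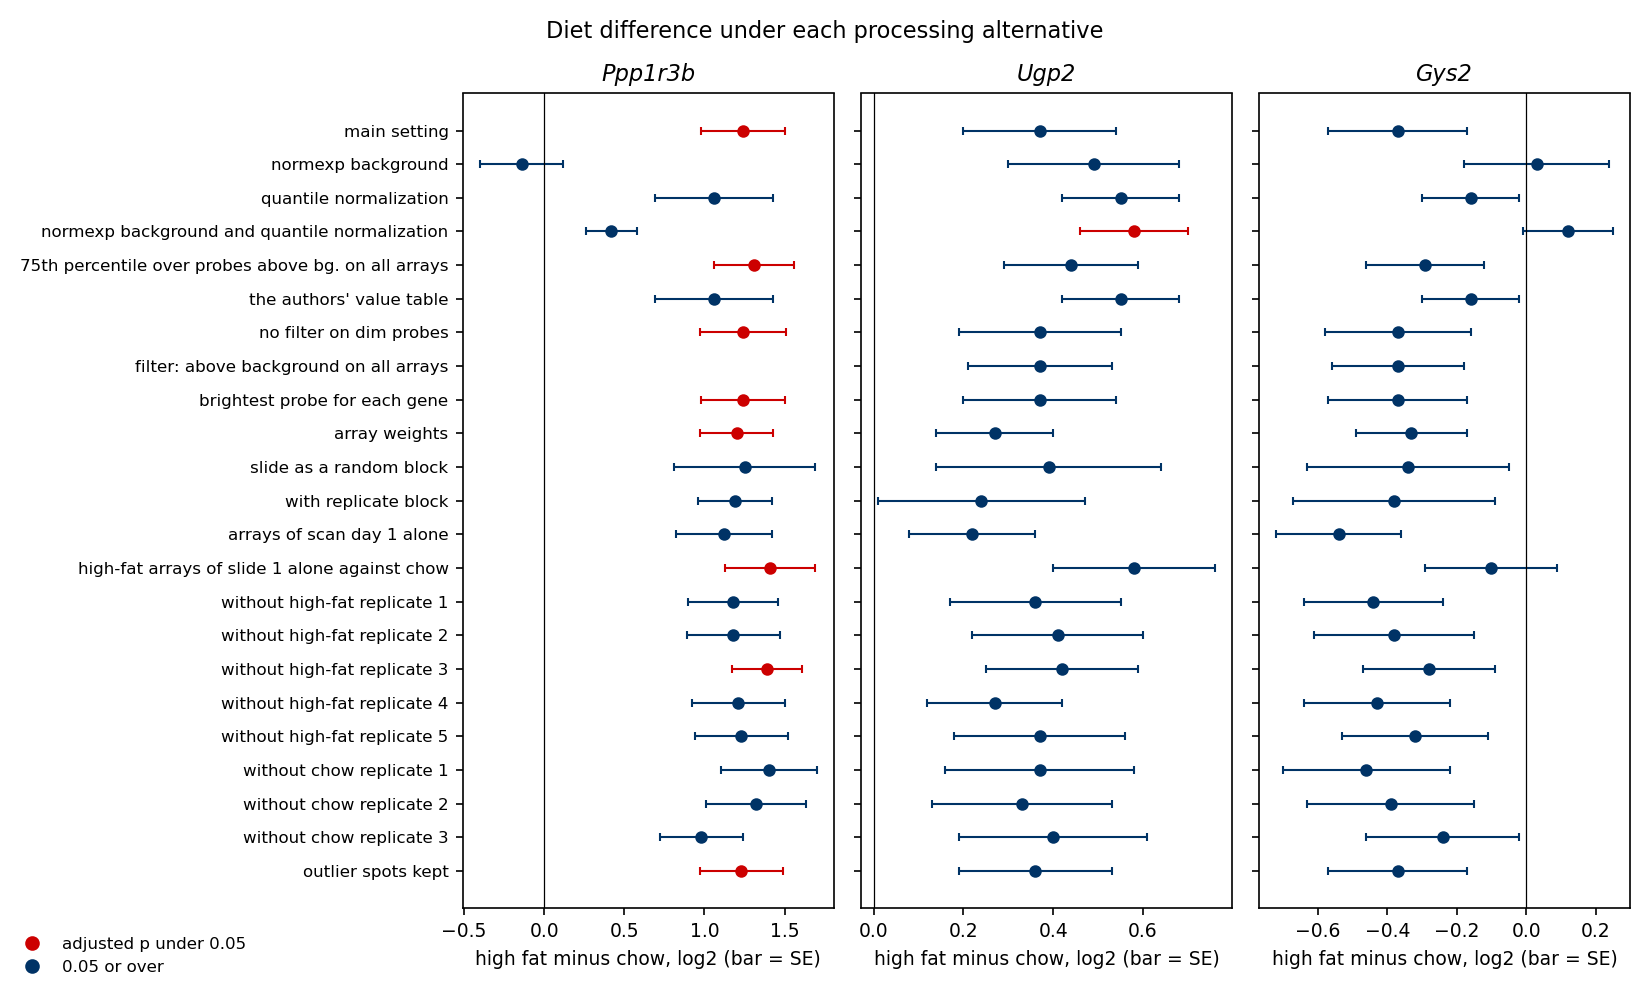
Difference in log2 signal, high-fat minus chow (horizontal axes, each with its own range), for Ppp1r3b, Ugp2 and Gys2 under the main processing and each alternative (rows); bars are the SE and red points have a limma adjusted p under 0.05. Ppp1r3b runs from −0.14 with the normexp background model to 1.41 with the high-fat arrays of slide 1 alone, Ugp2 lies above 0 from 0.22 to 0.58, and Gys2 turns above 0 under the 2 normexp settings.

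The genes whose levels ran closest to Ppp1r3b over the 8 arrays, of 10712 genes compared, were Luzp1 (Pearson r = 0.992), Sgk1 (r = 0.987) and Jpt2 (r = 0.985). Sgk1, a kinase induced by glucocorticoids, had levels of 2.44, 2.49, 2.01, 2.54 and 2.43 on high-fat arrays 1 to 5. Those of chow arrays 1 to 3 were 1.93, 1.90 and 1.36. High-fat array 3 and chow array 3 were thus the lowest of their diets for Sgk1, as they were for Ppp1r3b. Luzp1 and Jpt2 also had their lowest value of each diet on those arrays. These genes were picked by their correlation over the same 8 arrays, which share slides, so their shared low arrays are no separate result.

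Ppp1r3c, the targeting subunit also called PTG, binds synthase and phosphorylase as well as the phosphatase and is made in many tissues. Its levels on high-fat arrays 1 to 5 were 5.06, 4.84, 4.23, 5.27 and 4.78. Chow arrays 1 to 3 had 4.87, 4.88 and 5.49. The diets overlapped, with the lowest value on high-fat array 3 and the highest on chow array 3. Ppp1r3c lay in the brightest of the bins, where the median difference was −0.24. Its own difference was −0.25 ± 0.26 (SE) with a 95% confidence interval of −0.83 to 0.34 and a limma adjusted p of 0.659. The direction depended on the slide: the high-fat arrays of slide 1 lay 0.08 above chow and those of slide 2 lay −0.46 from it.

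Ugp2 makes UDP-glucose, the donor for glycogen synthase. High-fat arrays 1 to 5 had levels of 5.54, 5.34, 5.28, 5.91 and 5.48. The chow levels, arrays 1 to 3, were 5.14, 5.08 and 5.21. Every high-fat array lay above every chow array, and the chow arrays were close together, with an SD of 0.07 (n = 3) against 0.25 (n = 5) on high-fat diet. The difference of 0.37 ± 0.17 (SE) did not pass (limma adjusted p = 0.279), and its 95% confidence interval of −0.03 to 0.76 included 0. Ugp2 lay in the brightest of the 10 bins, where the median difference was −0.24 and 2.97% of probes were higher on high-fat diet without overlap. Quantile normalization after the normexp background model gave 0.58 ± 0.12 (SE) and a call (limma adjusted p = 0.0178).

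Gyg1, glycogenin, primes a new glycogen particle by attaching the first glucose units to itself. Its levels on high-fat arrays 1 to 5 were −2.48, −1.76, −1.11, −1.94 and −1.39. The 3 chow arrays, in order, had −1.56, −1.38 and −1.61. The high-fat arrays spread to both sides of the chow arrays: the pair on slide 1 were the lowest of all 8, and high-fat array 3 the highest. The difference was −0.22 ± 0.29 (SE; limma adjusted p = 0.735), made of −0.69 for the arrays of slide 1 and 0.10 for those of slide 2.

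Gys2, the liver glycogen synthase, adds glucose to the growing chains. High-fat arrays 1 to 5 had levels of 4.46, 4.21, 3.81, 4.41 and 3.97. Chow arrays 1 to 3 stood at 4.34, 4.49 and 4.79. Chow array 3 was the highest and high-fat array 3 the lowest, and the diets overlapped. Gys2 also lay in the brightest of the bins, where the median difference was −0.24. Its own difference was −0.37 ± 0.20 (SE) with a 95% confidence interval of −0.82 to 0.09 and a limma adjusted p of 0.346. The sign turned with the normexp background model, to 0.03 alone and to 0.12 with quantile normalization. Relative to the median of all probes in each setting, these were 0.33 and 0.12.

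Gys2 and Ppp1r3c were low and high on the same arrays, with a Pearson r of 0.90 over the 8 arrays and 0.92 over the 5 high-fat arrays; this is a description of 1 of 21 pairs of the genes, over arrays that share slides. Their promoters are shown because these levels moved together across the arrays. Each is the 250 bases before the transcription start on the gene's strand, from RefSeq on the GRCr8 assembly. Capitals mark the E-box CACGTG, the sequence bound by MYC- and USF-type factors and the circadian factors CLOCK and BMAL1; a match describes letters only. The Ppp1r3c window is chr1:243878528-243878777 on the minus strand, with the E-box 54 bases before the start, and the Gys2 window is chr4:177137237-177137486 on the minus strand, with no capitals.
Ppp1r3c: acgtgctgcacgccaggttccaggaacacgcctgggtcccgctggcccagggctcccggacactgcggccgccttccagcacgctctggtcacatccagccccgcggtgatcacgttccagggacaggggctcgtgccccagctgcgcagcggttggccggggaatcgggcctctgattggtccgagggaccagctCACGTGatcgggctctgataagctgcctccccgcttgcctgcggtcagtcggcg
Gys2: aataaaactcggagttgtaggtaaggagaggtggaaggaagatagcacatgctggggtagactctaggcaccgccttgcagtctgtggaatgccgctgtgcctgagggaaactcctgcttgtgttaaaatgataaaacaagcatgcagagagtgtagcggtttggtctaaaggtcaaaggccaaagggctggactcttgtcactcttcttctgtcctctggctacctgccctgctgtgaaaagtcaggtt
Promoter windows matched 7 of the 8 listed genes, Phka2 among them; Ppp1r3b was not searched. CACGTG stood in 2 of these 7 windows, those of Ppp1r3c and Gyg1, and in 5.59% of all 33469 promoter windows of this length. The cyclic AMP response motif TGACG, or CGTCA on the other strand, stood in the Gyg1 window alone of the 7 searched, overlapping its E-box, and in 18.2% of all windows. The forkhead motif TGTTTAC, or GTAAACA on the other strand, stood in 0 of the 7 windows searched and in 3.21% of all windows.

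Gbe1, the branching enzyme, moves stretches of chain to make the branch points of glycogen. Its levels on high-fat arrays 1 to 5 were 1.36, 1.22, 1.66, 1.05 and 0.95. For chow arrays 1 to 3 they were 0.85, 1.14 and 0.45. High-fat arrays 4 and 5 lay within the range of chow, and the other 3 above it. The difference was 0.43 ± 0.22 (SE) with a 95% confidence interval of −0.07 to 0.94 and a limma adjusted p of 0.309. It was 0.39 for the arrays of slide 1 and 0.46 for those of slide 2.

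Pygl, the liver glycogen phosphorylase, cuts glucose units from glycogen. Its spot was marked as non-uniform on high-fat arrays 4 and 5 and left out there, so the fit used 6 arrays. High-fat arrays 1 to 3 had 4.35, 3.28 and 2.80, and chow arrays 1 to 3 had 3.02, 2.51 and 3.04. High-fat array 1 lay far above the rest, and high-fat array 3 lay within chow. The difference over these 6 arrays was 0.62 ± 0.41 (SE) with a 95% confidence interval of −0.37 to 1.61 and a limma adjusted p of 0.46, and without high-fat array 1 it was 0.18. Kept, the marked spots read 4.55 on high-fat array 4 and 2.99 on high-fat array 5, and the difference over 8 arrays was 0.74 ± 0.43 (SE; limma adjusted p = 0.382).

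The Pygl values of slide 1, marked spots included, were therefore the highest of the 8, at 4.34 and 4.55, while those of slide 2 ran from 2.80 to 3.28. With the marked spots left out, the single array of slide 1 stood 1.49 above chow, a value with no spread of its own, and the arrays of slide 2 stood 0.18 above. Over the 6 arrays with a value, Pygl ran opposite to Gyg1 (Pearson r = −0.94) and together with Ugp2 (r = 0.91). This describes pairs out of 21, over arrays that share slides, with slide 1 present only through high-fat array 1. The genes closest to Pygl over those 6 arrays were Rad9b (r = 0.996), Lrtm2 (r = 0.995) and Trrap (r = 0.995). Lrtm2 had 2.98 and 2.56 on the slide 1 arrays, 1.27 to 1.87 on the slide 2 arrays and 1.05 to 1.73 on chow. It was picked by its correlation with Pygl over those 6 arrays, so its values on them are no separate result.

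**Figure D3:**
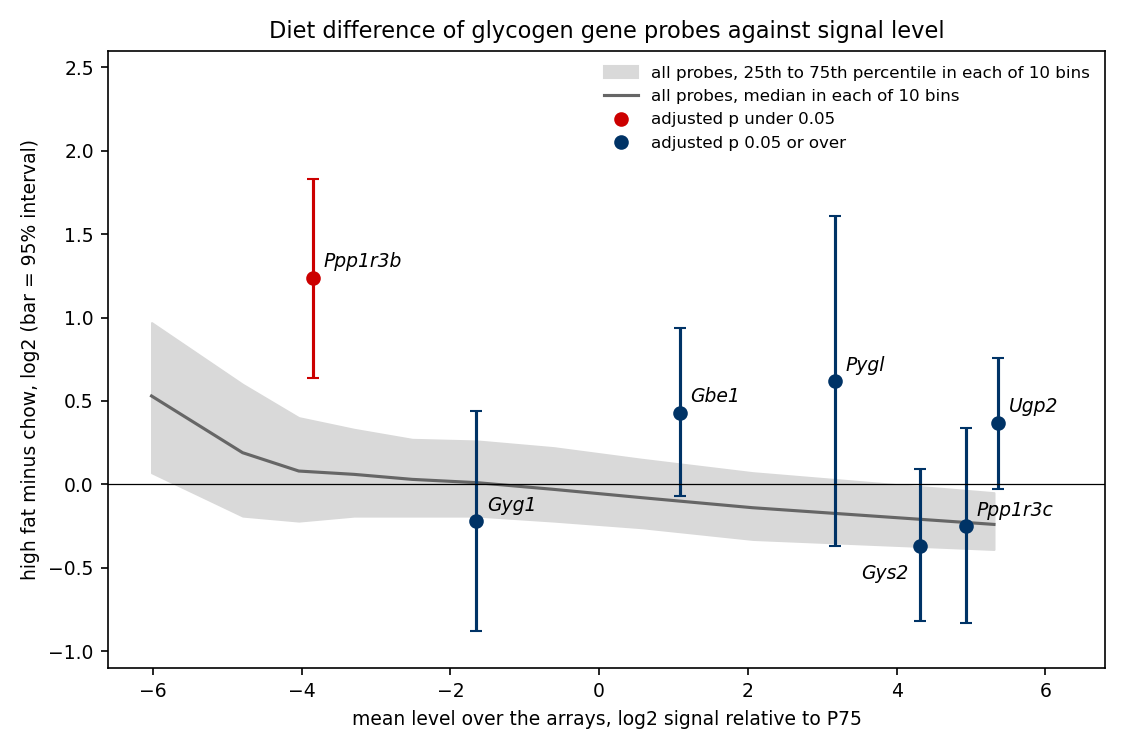
Difference in log2 signal, high-fat minus chow (vertical axis), against the mean log2 level over the arrays (horizontal axis) for the 7 glycogen genes, with 95% confidence intervals as bars; the line and band are the median and the 25th to 75th percentile of all probes tested in 10 bins of level. The line falls from 0.53 to −0.24; Ppp1r3b, at 1.24, lies among dim probes, and Ugp2, at 0.37, among the brightest.

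The other genes around glycogen were taken from 8 lists of 53 genes, of which 49 were tested on 66 probes. In limma 0 rose and 0 fell, at a smallest adjusted p of 0.0860. By the brightest probe of each gene, 8 of 49 genes had an unadjusted p under 0.05, which is 16.3% of genes beside 20.1% of all probes. Of the 8, 5 had a positive difference and 3 a negative one. Their median difference was 0.02, with 25 genes positive and 24 negative.

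Among the other synthesis genes, the smallest adjusted p belonged to Pgm2l1, a relative of phosphoglucomutase that makes glucose 1,6-bisphosphate. Its dimmer probe differed by 0.63 ± 0.17 (SE; limma adjusted p = 0.0860), and its brighter probe, averaged over 10 spots, by 0.11 ± 0.21 (SE; limma adjusted p = 0.832), so its probes disagreed in size. With the normexp background model they read 0.03 and −0.02.

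Among the other breakdown genes it was Gaa, the lysosomal acid glucosidase that breaks glycogen down inside lysosomes. High-fat arrays 1 to 5 had Gaa levels of 0.78, 1.03, 0.85, 0.91 and 1.10. Those on chow arrays were 1.38, 1.24 and 1.78. Every high-fat array was below every chow array. Of all probes 8.97% were lower without overlap, and of those in the same bin of level as Gaa 15.3%. The difference of −0.53 ± 0.17 (SE) did not pass (limma adjusted p = 0.13). Of the genes for the cytosolic and lysosomal breakdown routes together, 0 of 4 passed.

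Of 7 other phosphorylase kinase subunits and calmodulins 0 passed. Phka1, the muscle alpha subunit of phosphorylase kinase, had the smallest adjusted p: 1.10 ± 0.35 (SE; limma adjusted p = 0.130). It was well above background on 4 high-fat arrays and on 0 chow arrays, and its high-fat mean of −5.06 lay below −4.89, the mean over the chow arrays of the lowest level above background on each, so no fold is given; the normexp background model turned it to −0.61.

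Of 5 other targeting and catalytic subunits of protein phosphatase 1 that were tested, 0 passed. Ppp1cc, the gamma catalytic subunit, had the smallest adjusted p, with −0.33 ± 0.15 (SE; limma adjusted p = 0.275) on its brighter probe and −0.08 ± 0.14 (SE) on the other, which turned to 0.06 with quantile normalization. Nhlrc1, also called malin, a ubiquitin ligase lost in Lafora disease, had the smallest adjusted p of 3 glycogen quality genes, with −0.69 ± 0.23 (SE; limma adjusted p = 0.144). Its value was lower on every high-fat array than on every chow array, beside 8.97% of all probes and 3.78% of those in its bin of level. It passed with normexp and quantile normalization together, at −0.69 (limma adjusted p = 0.00635).

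Of 11 kinase genes that act on glycogen synthase or phosphorylase kinase 0 passed. Prkar2a, a regulatory subunit of protein kinase A, had 0.85 ± 0.26 (SE; limma adjusted p = 0.126). Its probe cleared background on each of the 5 high-fat arrays and on 0 chow arrays, so it entered the test only through the high-fat arrays, and no fold is given for it. The normexp background model turned its difference to −0.44.

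Of 6 genes for glucose entry, phosphorylation and release 0 passed. Of 9 hormone receptor and insulin signal genes 0 passed. The smallest adjusted p was that of Irs1, an adaptor of the insulin receptor. Its dimmer probe differed by 0.43 ± 0.25 (SE; limma adjusted p = 0.381) and its brighter probe by −0.14 ± 0.22 (SE). The normexp background model gave −0.05 on the dimmer probe, above the median of −0.3 over all probes under it. With quantile normalization added the brighter probe turned to 0.08.

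**Figure D4:**
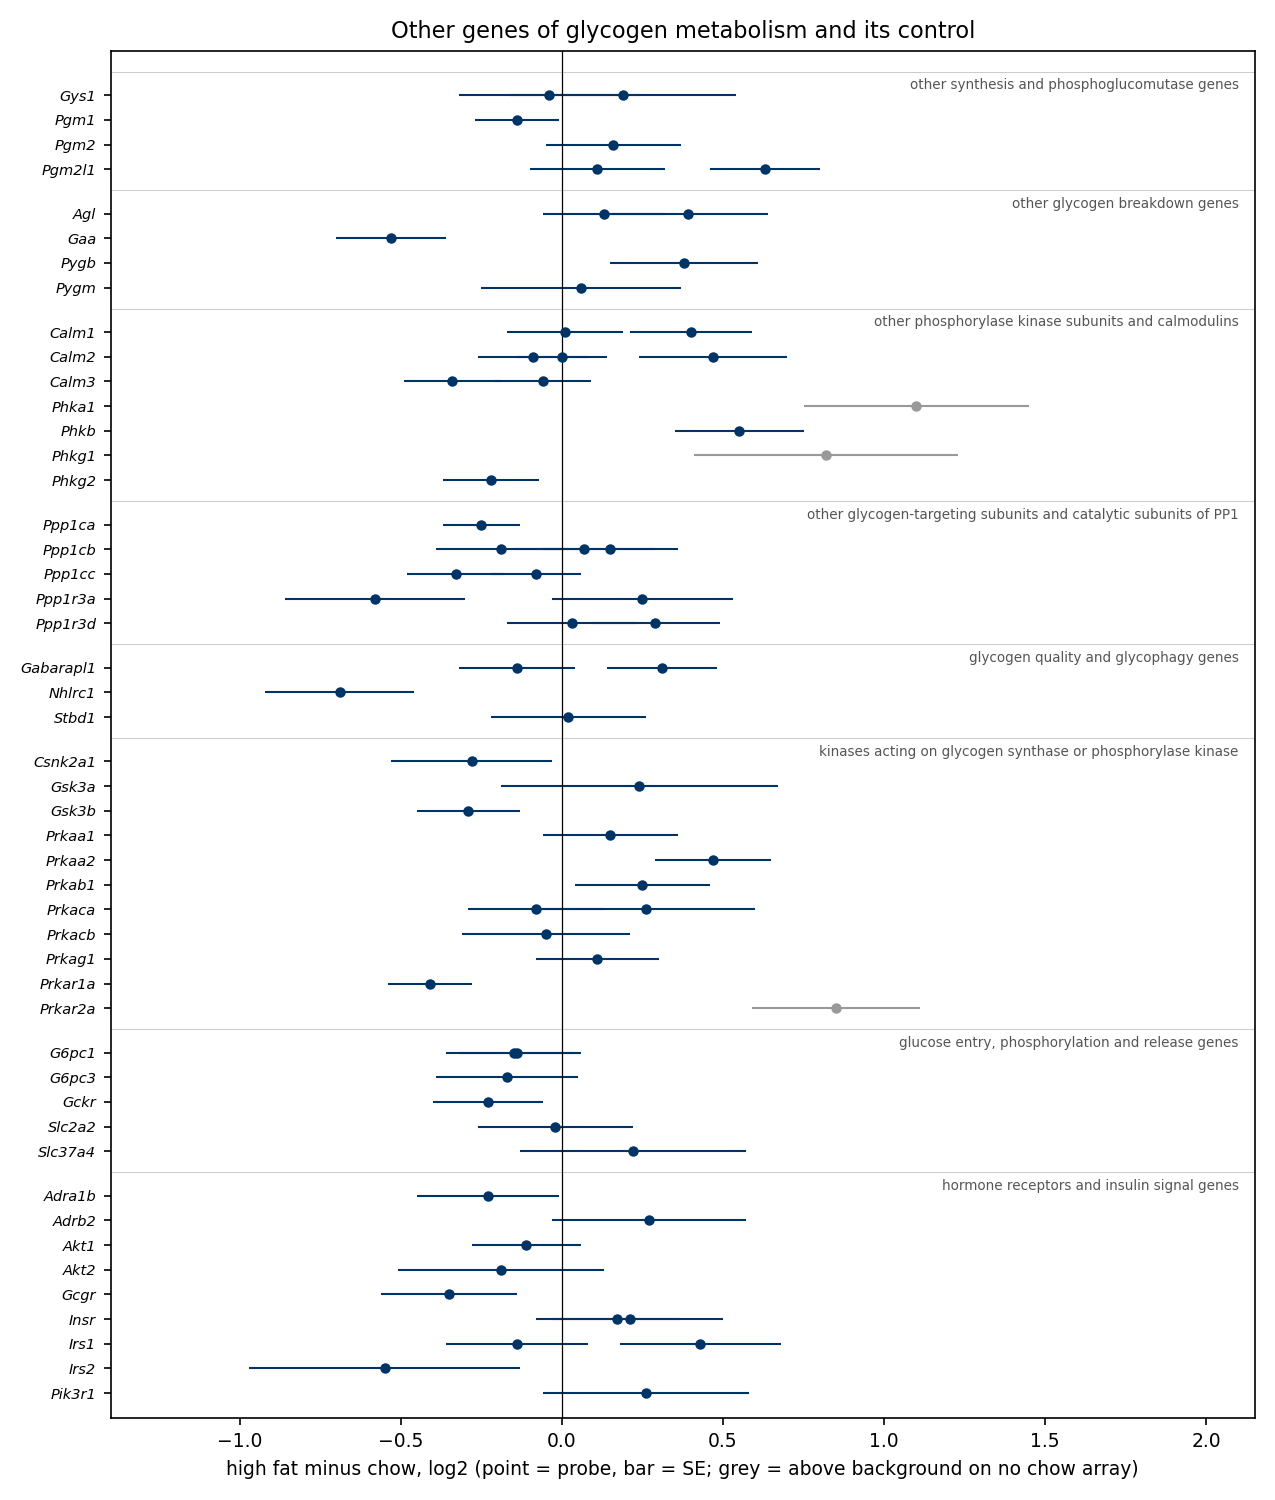
Difference in log2 signal, high-fat minus chow (horizontal axis), for other genes of glycogen metabolism and its control (rows), grouped into 8 lists; each point is a probe, bars are the SE, and grey points are probes above background on no chow array. Phka1, at 1.10, lies farthest to the right, and Nhlrc1, at −0.69, farthest to the left; 0 of the probes shown passed in limma.

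Markers of other cells and tissues were set beside these results. Of the Kupffer cell, endothelial, stellate cell, cholangiocyte, lymphocyte, erythroid and adipocyte markers tested, 0 passed in limma. An unadjusted p under 0.05 was found for 2 of 8 Kupffer cell and 4 of 8 stellate cell markers, beside 20.1% of all probes. Of 5 skeletal muscle markers tested 2 rose, Ckm and Acta1. Both passed the filter on dim probes only through the 5 high-fat arrays, so the filter itself favoured a higher value there and no fold is given. Mb, myoglobin, the tested muscle marker above background on all 8 arrays, differed by −0.18 ± 0.26 (SE; limma adjusted p = 0.766). Ckm, muscle creatine kinase, differed by 1.85 ± 0.21 (SE; limma adjusted p = 0.0032). Acta1, skeletal alpha actin, differed by 1.54 ± 0.31 (SE; limma adjusted p = 0.0363). With the normexp background model Ckm differed by 0.15 (limma adjusted p = 0.621) and Acta1 by −0.31 (limma adjusted p = 0.464). Ppp1r3b differed by −0.14 there, and the median of all probes was −0.3. With normexp and quantile normalization together Ckm passed at 0.68 (limma adjusted p = 0.0121). In that setting Acta1 was 0.28 (limma adjusted p = 0.0525) and Ppp1r3b 0.42 (limma adjusted p = 0.123). Quantile normalization alone kept both muscle calls, at 1.69 for Ckm (limma adjusted p = 0.0151) and 1.29 for Acta1 (limma adjusted p = 0.0189).

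Both muscle genes were above background on 0 chow arrays, and Tnnt3, a muscle troponin, was above background on 0 of the 8 arrays. The mean level of the 5 muscle markers tested ran from −4.43 to −3.42 on high-fat and from −4.84 to −4.69 on chow arrays. Casq1 and Myh4, like Ckm and Acta1, entered this mean only through high-fat arrays, so the filter favoured a higher mean there. Muscle probes left out by the filter had lower means on high-fat arrays. Myh1 had −6.02 on high-fat and −5.69 on chow arrays, Tnnt3 −6.64 and −6.04, and a second Casq1 probe −8.04 and −6.93. The part of muscle RNA, or of the brighter high-fat arrays, in the Ppp1r3b difference was not tested. The muscle forms Gys1 and Pygm differed by 0.19 ± 0.35 (SE) and 0.06 ± 0.31 (SE) and did not pass in limma (adjusted p = 0.822 and 0.937). Quantile normalization turned Pygm to −0.04. The normexp background model gave −0.02 for Gys1, above the median of −0.3 over all probes under it.

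The time and feeding state of collection are not in the labels, so lists that follow them were read too. Of 7 fasting and feeding genes tested, 10 clock genes and 6 immediate-early genes 0 passed in limma. In each list 2 genes had an unadjusted p under 0.05, beside 20.1% of all probes. Egr1, an immediate-early transcription factor, had the smallest adjusted p of its list at −1.23 ± 0.37 (SE; limma adjusted p = 0.112), and Npas2, a clock factor, that of its own at −0.71 ± 0.19 (SE; limma adjusted p = 0.0896) on its brighter probe, beside −0.02 ± 0.31 (SE; limma adjusted p = 0.985) on its other probe. With normexp and quantile normalization together Egr1 and the brighter Npas2 probe passed, at −0.97 (limma adjusted p = 0.0401) and −0.55 (limma adjusted p = 0.0426). The part of feeding state or time of day in the values of the glycogen genes was not tested.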

How the data were processed

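Total RNA of 8 liver samples was hybridised to Agilent arrays in a single colour. Per the submitters' processing notes the scans were read with Agilent Feature Extraction 11.0.1.1. The deposited scanner files hold, per the file headers, a processed signal, a median signal and a local background in intensity units, background-subtracted within the array for the processed signal and not scaled between arrays, and marks of 0 or 1 for each spot. The authors' deposited value table holds log2 values, used as an alternative; how it was made is not given in the sources used here, its column medians were 6.423 to 6.424, and its correlation with the log2 processed signal of each array was 0.995 to 0.999, so its centring is known and its exact scale is not.

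Control spots and spots marked as outliers were left out, spots of a probe averaged on the log2 scale, and the 75th percentile of each array subtracted. Testing needed a share of 0.5 or more of a probe's spots to clear background on 3 or more of the 8 arrays; the 7 glycogen probes all passed, Ppp1r3b through 5 high-fat and 2 chow arrays. Of 30367 probes 18005 received a symbol through a RefSeq table of the GRCr8 assembly, which also gave the promoter windows; the array design names an older assembly, so the only positions printed are those of promoter windows on GRCr8. Diets were compared with limma 3.58.1 in R 4.3.3 (lmFit and eBayes, two-sided) by probe. The number of arrays limits the precision, and 0 array pairs held identical values. The method was tested on simulated data. Limma called 11 of 50 probes raised by 1 and 15 of 50 lowered by 1. It called 30 of 50 raised by 2, 29 of 50 lowered by 2 and 7 of 25270 unchanged probes. The simulated arrays were independent of one another, while the correlation within slides was 0.439 in the data, so slides were not covered.

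For a gene with no chow array above background no fold is given. Slides are arrays that share a scan identifier and time in the file headers. The normexp alternative (offset 50) used the median signal, in place of the mean signal that had been planned. The high-fat sample names carry a leading number that arrays 1 and 2 have in common, and likewise arrays 3 and 4; what it stands for is not given in the labels, so whether such samples are independent is not known.

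Named genes are the 8 genes of the list; for each of 8 further lists, the gene with the smallest adjusted p (1 of these is not reported here); and the 3 genes most like each of the 2 listed genes with the largest differences, among probes above background on every array. Marker genes were named from the marker lists, and Gys1 and Pygm, with the marker genes named by their change, were picked once their values were known. The genes and lists were chosen with earlier results of these data known.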

Additional observations from a re-analysis of the deposited data

Results flagged for a closer look

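Ppp1r3b on high-fat array 3 stood apart from the other high-fat arrays. Its level was −3.99 and the next lowest was −3.35, a gap of 0.763 of the whole range of the 5 arrays, above Dixon's critical value of 0.71. Of 6 glycogen genes with 5 high-fat values this was the single case, and chance marks about 1 group in 20. Without that array the difference was 1.39 in place of 1.24.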

How the results depend on the processing

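Alternatives were read against 884 probes passing (768 higher, 116 lower) and the differences above; outlier spots kept was an alternative chosen after seeing the data. The counts of all, higher and lower probes were 136, 122 and 14 with the normexp background; 2317, 1114 and 1203 with normexp and quantile normalization; 3867, 2309 and 1558 with array weights; 3159, 2757 and 402 with the arrays of scan day 1 alone; and 2003, 1036 and 967 with slide 1 alone against chow. Lower probes were 307 with quantile normalization, 339 with the authors' value table, 446 with no filter and 59 with the 75th percentile over probes above background on all arrays. The filter on all arrays left 513 (371 higher, 142 lower), and removed Ppp1r3b and Pygl. Ppp1r3b was removed for its dim spot on chow array 3. Pygl was removed because its marked spots on high-fat arrays 4 and 5 were left out, although they were well above background. Slide as a random block left 76, all higher, with 0 lower in limma (410 lower at unadjusted p under 0.05). Leaving out single arrays gave 402 to 864 in all, 384 to 807 higher and 16 to 91 lower; the count in all fell to 481 without high-fat array 2, and to 402, 458 and 462 without chow arrays 1, 2 and 3.

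Ppp1r3b was 0.42 (limma adjusted p = 0.123) with normexp and quantile normalization, 1.06 (0.141) with the authors' value table and 1.06 with quantile normalization, 1.12 (0.056) on scan day 1 alone, 1.25 with the slide block and −0.14 with the normexp background; its adjusted p ran from 0.0138 to 0.722 over 13 alternatives, and leaving out single arrays gave 0.98 to 1.40. Reversed signs were 0.08 for Ppp1r3c on slide 1 alone, 0.03 and 0.12 for Gys2 with normexp without and with quantile normalization, and 0.10 for Gyg1 on scan day 1 alone. Ugp2 passed at 0.58 with normexp and quantile normalization. Leaving out single arrays gave −0.35 to −0.04 for Ppp1r3c, −0.46 to −0.24 for Gys2, 0.18 to 0.96 for Pygl, 0.27 to 0.42 for Ugp2, 0.25 to 0.60 for Gbe1 and −0.38 to −0.03 for Gyg1, with 0 calls. The cause of these changes was not tested. Of 152 comparisons of a gene under an alternative 133 kept both direction and call. A gene not called in the main processing kept its call by staying uncalled. Ppp1r3b, the gene that was called, passed in 6 of 13 alternatives and in 1 of 8 fits that left out a single array. Among those 6 were no filter, the brightest probe for each gene and outlier spots kept. These left its difference at 1.24, 1.24 and 1.23, almost as in the main processing, so passing there says little about its call. High-fat arrays of slide 2 alone against chow are the arrays of scan day 1.

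Same-numbered arrays of the diets correlated in their deviations from the diet means at 0.045, 0.035 and 0.061 for numbers 1 to 3, so the numbers were not taken as pairs. With the replicate block 0 probes passed, 0 higher and 0 lower, in limma (3435 at unadjusted p under 0.05), and Ppp1r3b was 1.19 (limma adjusted p = 0.10). Signal over background limits Ppp1r3b, whose spot was not well above background on chow array 3.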

Other observations

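Several genes outside the list of 8 split by slide within the high-fat samples; these were chosen after their values were seen. Gys1, the muscle glycogen synthase, had a mean of −0.58 on the high-fat arrays of slide 1 and −1.72 on those of slide 2 with its brighter probe, while its dimmer probe had −4.07 and −3.54. Pygm, the muscle phosphorylase, had −0.58 and −1.41. Slc37a4, the carrier that brings glucose 6-phosphate into the endoplasmic reticulum for release as glucose, had 5.23 and 4.17. Among the 7 listed genes with a probe, the slide 1 minus slide 2 gap within high-fat samples was 1.31 for Pygl (1 array against 2), 0.55 for Ppp1r3c, 0.44 for Gys2, 0.36 for Ugp2, 0.29 for Ppp1r3b, −0.08 for Gbe1 and −0.79 for Gyg1. The split was not tested.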
